A study of Mus musculus with 2 samples.

Results

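Dendritic cells take up antigen from tumors and present it to T cells, and 8 genes that mark them were followed in 2 spatial transcriptomic libraries of mouse pancreatic tumors. The members were matched by gene symbol among the 19465 features measured in both libraries, and all 8 were found: Xcr1, Clec9a, Batf3, Cd209a, Ccr7, Fscn1, Flt3 and Itgax. The tumors were orthotopic allografts, grown in the mouse pancreas from injected KPC cells, a mouse pancreatic cancer line. The KPC-shZEB1-labelled library comes from cells carrying a short hairpin RNA against Zeb1, a transcription factor that drives epithelial-mesenchymal transition, and the KPC-shV-labelled library from cells with the control vector. The labels name no other treatment, whereas the study's text describes the tumors it used for this assay as treated with gemcitabine in both groups. The protocol deposited with the samples gives 2 tumors per group, but each group has 1 library whose tumor is not named, so the spread between tumors cannot be estimated, no test was possible, and every interval below is a 95% interval of counting error.

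Conventional dendritic cells fall into type 1 cells (cDC1), which cross-present antigen to CD8+ T cells, and type 2 cells (cDC2), which mainly present antigen to CD4+ T cells. After antigen uptake either type can mature into a migratory state, switch on the chemokine receptor Ccr7 and travel to lymph nodes. Among the cDC1 genes, Xcr1 encodes the receptor for the chemokine Xcl1, Clec9a a lectin receptor for exposed actin of dead cells, and Batf3 a transcription factor needed for cDC1 development. Cd209a, a DC-SIGN family lectin, marks cDC2 and monocyte-derived cells. Fscn1 encodes the actin-bundling protein fascin, which mature dendritic cells share with invasive carcinoma cells and other motile cells. Flt3 is the receptor for the growth factor Flt3l, and Itgax encodes CD11c, which macrophages also carry.

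Xcr1, Clec9a and Cd209a are 3 of the 4 members with higher levels in the KPC-shZEB1-labelled library. Fscn1 is the member with the largest difference the other way. The windows around the start sites of these genes are shown to set their base composition side by side. They are RefSeq sequences of GRCm38.p6, 5′ to 3′ on the gene's strand, from 250 bases before to 50 after the start, with each CpG in capitals. Xcr1 lies on the minus strand at chr9:123861980-123862279, Clec9a on the plus strand at chr6:129408612-129408911, Cd209a on the minus strand at chr8:3748935-3749234 and Fscn1 on the plus strand at chr5:142960105-142960404.
Xcr1: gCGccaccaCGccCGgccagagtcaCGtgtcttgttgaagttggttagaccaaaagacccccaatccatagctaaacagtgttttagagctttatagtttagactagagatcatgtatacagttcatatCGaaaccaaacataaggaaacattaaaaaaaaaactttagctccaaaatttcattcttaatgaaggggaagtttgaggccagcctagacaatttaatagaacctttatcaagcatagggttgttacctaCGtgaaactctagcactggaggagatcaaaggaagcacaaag
Clec9a: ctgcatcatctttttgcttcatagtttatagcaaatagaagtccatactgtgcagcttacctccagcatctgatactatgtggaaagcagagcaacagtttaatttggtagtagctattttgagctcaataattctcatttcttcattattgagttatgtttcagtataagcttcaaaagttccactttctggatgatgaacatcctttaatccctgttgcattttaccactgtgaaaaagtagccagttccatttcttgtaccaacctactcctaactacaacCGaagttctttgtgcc
Cd209a: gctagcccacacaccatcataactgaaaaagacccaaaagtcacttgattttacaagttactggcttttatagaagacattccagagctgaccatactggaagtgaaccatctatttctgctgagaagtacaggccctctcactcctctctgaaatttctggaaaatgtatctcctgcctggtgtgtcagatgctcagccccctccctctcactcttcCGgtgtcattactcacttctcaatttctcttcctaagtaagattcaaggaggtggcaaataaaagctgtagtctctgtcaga
Fscn1: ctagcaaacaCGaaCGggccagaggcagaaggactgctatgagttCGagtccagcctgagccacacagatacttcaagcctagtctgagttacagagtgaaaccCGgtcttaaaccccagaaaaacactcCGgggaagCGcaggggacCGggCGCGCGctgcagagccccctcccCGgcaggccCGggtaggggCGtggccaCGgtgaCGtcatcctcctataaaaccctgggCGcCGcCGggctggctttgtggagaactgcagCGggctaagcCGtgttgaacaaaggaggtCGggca

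The Xcr1 window held 6 CpG at 40% GC, the Clec9a window 1 at 37%, the Cd209a window 1 at 44% and the Fscn1 window 21 at 61.7%. Of the windows not shown, that of Itgax, also lower in the KPC-shZEB1-labelled library, held 5 at 50%. The Flt3 window held 18 at 61% and the Batf3 window 34 at 75.7%. Whether base composition goes with the direction of the levels was not tested. Over 32851 windows of this length the median was 7 CpG at 52.7% GC, 14.1% of windows had 1 CpG or none, and 24.8% had 21 or more. Of 4 motifs searched on both strands in the 7 members with a window (all but Ccr7), TGANTCA, the AP-1 and BATF core found in 7.81% of all windows, was present in Itgax only, 56 bases before the start. GAAA, any 2 bases and GAAA, an IRF element found in 3.44% of windows, was in none of them. GAGGAA, the PU.1 core found in 28.3%, was in Batf3 only. GGG, any 5 bases and CC, a loose NF-kB element found in 50.8%, occurred 3 times each in Batf3, where the matches overlap, and in Fscn1.

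The KPC-shZEB1-labelled library held 2220 spots and 140493626 unique molecular identifiers (UMIs, each 1 captured probe pair), with a median of 59957.5 per spot. The KPC-shV-labelled library held 3552 spots and 172059528 UMIs, with a median of 52544.5. A spot covers a patch of tissue with more than 1 cell, and 1718 spot barcodes occur in both libraries because the slides use the same barcode set. Acinar genes, those of the normal exocrine pancreas, took unequal shares: spots with over 20% of their UMIs from 19 acinar genes were 34.0% of spots in the KPC-shZEB1-labelled library and 6.93% in the other, with 39.0% and 3.72% of all UMIs. Levels are therefore given in UMIs per 1000000 UMIs of the library (CPM) over all spots and again outside these acinar-rich spots. The median log2 ratio of 15358 genes was -0.48 over all spots and -0.01 outside acinar-rich ones. The targeted gene did not separate the libraries in 1 direction: Zeb1 stood at 10.8 CPM in the KPC-shZEB1-labelled library and 12.4 in the other (log2 ratio -0.20, interval -0.30 to -0.11), but outside acinar-rich spots the log2 ratio was 0.30 (0.20 to 0.40), in tissue that mixes tumor with host cells. For scale, 10 genes of the eye, testis, tooth and pituitary, not expected in this tissue, read 0.427 to 1.66 CPM over all spots and 0.495 to 2.18 CPM outside acinar-rich ones.

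The 8 members did not move as 1 group. Xcr1, Clec9a, Cd209a and Ccr7 were higher in the KPC-shZEB1-labelled library, Fscn1 was lower, and Batf3 and Flt3 turned direction and Itgax came close to 0 once acinar-rich spots were left out. Over all spots, 2 of 8 members had a log2 ratio of at least 1, against 2.08% of 19011 genes, and 1 of 8 had a log2 ratio of -1 or less, against 8.20%. Outside acinar-rich spots, 4 of 8 reached a log2 ratio of at least 1, against 3.80%, and 0 were at -1 or below, against 1.71%. The members were chosen with earlier results of these data known, so these counts are a description only. Of the 4, Xcr1 (0.827 CPM) and Cd209a (2.19 CPM) lay in or at the edge of the range of the unexpected genes in the KPC-shV-labelled library. The median log2 ratio of the members was 0.19 over all spots and 0.74 outside acinar-rich ones. In tissue sections, fewer cells of a type and less RNA per cell cannot be told apart.

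**Figure D1:**
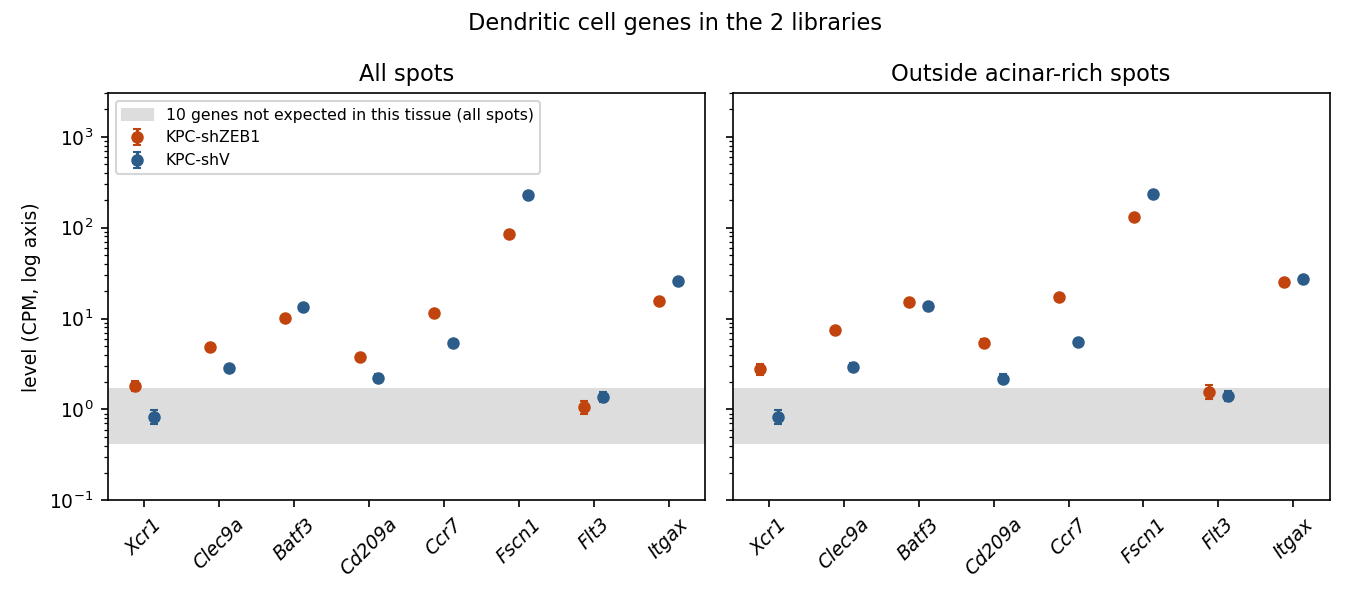
Level of each member in CPM (log axis) in the KPC-shZEB1-labelled and KPC-shV-labelled libraries, over all spots and outside acinar-rich spots, with bars for the 95% Poisson interval and a grey band for the 10 genes not expected in this tissue. Xcr1 in the KPC-shV-labelled library and Flt3 in both lie in the band, which runs from 0.427 to 1.66 CPM. In both panels the band is the range over all spots. The range of these 10 genes outside acinar-rich spots, given in the text, reaches higher.

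Of the cDC1 genes, both surface receptors were higher in the KPC-shZEB1-labelled library. Xcr1 was at 1.83 CPM there and 0.825 in the KPC-shV-labelled library, from 257 and 142 UMIs, a log2 ratio of 1.15 (0.85 to 1.45). The value in the KPC-shV-labelled library lies inside the range of the genes not expected in this tissue, so no expression of Xcr1 above background could be read there at this depth. Outside acinar-rich spots Xcr1 was at 2.76 and 0.827 CPM, a log2 ratio of 1.74 (1.43 to 2.05).

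Clec9a was at 4.80 CPM in the KPC-shZEB1-labelled library and 2.84 in the other, above the background genes in both. Its log2 ratio was 0.76 over all spots and 1.34 (1.17 to 1.52) outside acinar-rich ones, where the levels were 7.46 and 2.94 CPM. At least 1 Clec9a UMI was found in 29.8% of spots outside acinar-rich ones in the KPC-shZEB1-labelled library and in 11.6% in the other. In the acinar-rich spots, where exocrine RNA dominates, the shares were 4.11% and 0.813%. These spots are not free of leukocytes, since Ptprc was found in 49.6% and 73.2% of them, and their depth differs, so their shares do not measure background. Median depths were 58246.5 and 66642.5 UMIs outside and inside acinar-rich spots in the KPC-shZEB1-labelled library, and 54738 and 24323 in the other.

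The factor Batf3 took a different course from the receptors. It was at 10.1 CPM in the KPC-shZEB1-labelled library and 13.3 in the other over all spots, a log2 ratio of -0.39, and at 15.3 and 13.6 CPM outside acinar-rich spots, a log2 ratio of 0.17 (0.07 to 0.27). Batf3 supplied 1424 of the 2355 UMIs of the 3 cDC1 genes in the KPC-shZEB1-labelled library and 2282 of 2913 in the other, and their summed log2 ratio was -0.01 (-0.09 to 0.06). Activated T cells and other myeloid cells are also known to transcribe Batf3.

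Cd209a, the cDC2 gene, followed the cDC1 receptors. It was at 3.76 CPM in the KPC-shZEB1-labelled library and 2.21 in the other, a log2 ratio of 0.76 (0.57 to 0.96), and at 5.43 and 2.19 CPM outside acinar-rich spots, a log2 ratio of 1.31 (1.11 to 1.52). The value of 2.19 lies at the upper edge of the background genes outside acinar-rich spots, and the log2 ratio there is read with that limit. Of its UMIs, 27.1% lay in B cell rich spots, those with at least 100 CPM of 5 B cell genes, in the KPC-shZEB1-labelled library (206 of 2220 spots), and 9.45% in the other (146 of 3552 spots). Without the B cell rich spots the log2 ratio over all spots was 0.51. Detection of Cd209a also stood less apart from acinar tissue than that of Clec9a: 18.9% of spots outside and 6.50% inside acinar-rich spots in the KPC-shZEB1-labelled library, and 8.98% and 6.50% in the other, there in acinar-rich spots of lower depth.

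The genes of the migratory state went opposite ways. Ccr7 was at 11.5 CPM in the KPC-shZEB1-labelled library and 5.36 in the other, a log2 ratio of 1.10 (0.98 to 1.22), and at 17.0 and 5.52 CPM outside acinar-rich spots, a log2 ratio of 1.63 (1.51 to 1.75). It was found in 36.3% and 17.3% of spots outside acinar-rich ones, and in 9.55% and 3.66% of acinar-rich spots. Single spots held up to 43 Ccr7 UMIs in the KPC-shZEB1-labelled library and up to 24 in the other. B cell rich spots held 19.2% and 7.48% of its UMIs, and without them the log2 ratio over all spots was 0.97. Naive and central memory lymphocytes also express Ccr7. The part of lymphocytes in the Ccr7 level was not tested.

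Fscn1 was at 85.2 CPM in the KPC-shZEB1-labelled library and 228.5 in the KPC-shV-labelled library, a log2 ratio of -1.42 (-1.45 to -1.39). Outside acinar-rich spots it was at 132.3 and 236.2 CPM, a log2 ratio of -0.84 (-0.87 to -0.81), and over all alternatives the log2 ratio ran from -1.78 to -0.84. It was detected in 96.7% and 94.2% of spots outside acinar-rich ones. Detection in nearly every such spot means that a spot with Fscn1 does not by itself mark dendritic cells here, and dendritic cell expression of Fscn1 cannot be told apart from that of other cells. Because it gave nearly all UMIs of the migratory pair, their summed log2 ratio was -1.27 although Ccr7 alone was higher in the KPC-shZEB1-labelled library.

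Of the genes shared by dendritic cell types, Itgax was at 15.7 CPM in the KPC-shZEB1-labelled library and 26.1 in the other, a log2 ratio of -0.74 (-0.81 to -0.66). Outside acinar-rich spots the levels were 25.2 and 27.1 CPM, a log2 ratio of -0.11 (-0.18 to -0.03). Flt3 was at 1.06 and 1.37 CPM over all spots and at 1.55 and 1.41 outside acinar-rich ones, where the log2 ratio of 0.14 had an interval from -0.18 to 0.45. Over all spots its log2 ratio was -0.37 (-0.68 to -0.07). All 4 Flt3 levels lie within the range of the genes not expected in this tissue, so neither ratio is read as a difference in Flt3 expression.

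**Figure D2:**
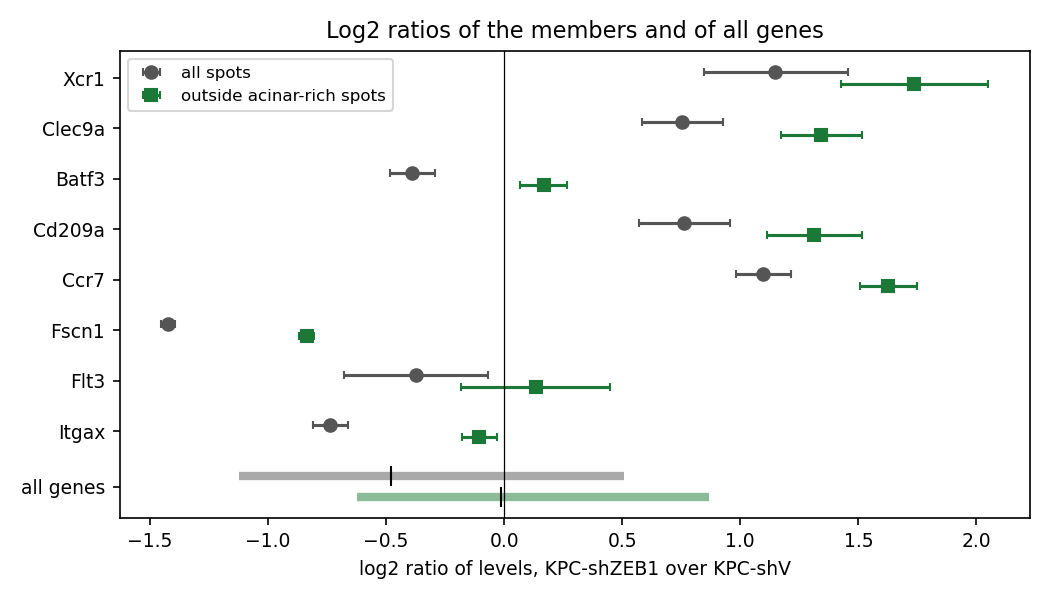
Log2 ratio of the level in the KPC-shZEB1-labelled library over that in the KPC-shV-labelled library for each member, over all spots and outside acinar-rich spots, with 95% intervals of counting error; the bars at the bottom span the 5th to 95th percentile of 19011 genes, with a tick at the median. Xcr1, Clec9a, Cd209a and Ccr7 lie right of 0 on both scales. Fscn1 and Itgax lie left of 0 on both, Itgax close to 0 outside acinar-rich spots.

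The immune infiltrate as a whole differed between the libraries, and the dendritic cell genes were read against it. Outside acinar-rich spots the pan-leukocyte gene Ptprc, which encodes CD45, had a log2 ratio of 0.96, 6 macrophage genes 0.63, 5 B cell genes 1.78 and the T cell receptor complex genes Cd3d, Cd3e and Cd3g 2.53, while 3 neutrophil genes stood at -1.30. Per Ptprc UMI, a setting chosen after seeing the data, the log2 ratio over all spots was 0.79 for Xcr1, 0.40 for Clec9a, 0.40 for Cd209a and 0.74 for Ccr7, and -0.75 for Batf3. Per T cell UMI the order turned round: the KPC-shZEB1-labelled library held 0.0966 Clec9a UMIs for each T cell UMI and the other 0.214, and for Ccr7 the values were 0.231 and 0.404. The log2 ratios of the 4 higher members thus lay above that of Ptprc and below those of the T cell and B cell genes, as levels without a test. Xcr1, at 1.74 outside acinar-rich spots, was close to the B cell genes. Xcr1 and Cd209a also lay in or at the edge of the background range there in the KPC-shV-labelled library.

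Other genes of the same programs were counted against all genes, of which 48.5% had a log2 ratio above 0 outside acinar-rich spots, where 3.80% reached 1, and 13.6% had one above 0 over all spots. The lists, like the members, were chosen with earlier results of these data known, so the list counts that follow are a description only. Of 7 further cDC1 genes, 5 had a log2 ratio above 0 outside acinar-rich spots, and 2 reached 1: the integrin gene Itgae at 2.02, which resident T cells also express, and Naaa, a lipid amidase gene, at 1.17. Itgae was at 3.86 CPM in the KPC-shZEB1-labelled library and 0.954 in the other. The second value lies inside the background range, so the Itgae ratio is read with that limit. The adhesion gene Cadm1, which epithelium also expresses, was lowest of the 7 at -0.56, and the median was 0.25. Of 7 further cDC2 genes 6 were above 0, with Irf4, a transcription factor of cDC2 and lymphocytes, at 1.25, Esam, shared with endothelium, at -0.93, and a median of 0.85. Over all spots the medians were -0.35 and 0.32.

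Among 14 further genes of the migratory state, 11 were above 0 outside acinar-rich spots (48.5% of all genes) and 4 reached 1 (3.80%). These were the chemokines Ccl17 (44.3 and 14.6 CPM, log2 ratio 1.60) and Ccl22 (18.1 and 6.30 CPM, 1.52), both ligands of Ccr4 on T cells, the interleukin 12 subunit Il12b (1.33) and the amino acid oxidase Il4i1 (1.02). Il12b and Il4i1 read 1.14 and 1.23 CPM in the KPC-shV-labelled library, inside the background range. The lowest was Socs2, a cytokine signaling inhibitor, at -0.47, and the median was 0.50. Over all spots 0 of the 14 reached 1 (2.08% of all genes) and 6 were above 0 (13.6%), with a median of -0.08. At -1 or less was 1 of the 14 (8.20% of all genes).

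The 6 further genes shared by dendritic cells were all above 0 outside acinar-rich spots (48.5% of all genes), and 4 reached 1 (3.80%). H2-DMb2, a class II antigen loading gene also used by B cells and macrophages, was at 51.5 and 17.5 CPM (log2 ratio 1.55), Dpp4 at 1.37, the class II transactivator Ciita at 1.23 and the costimulatory gene Cd86 at 1.14, with the costimulatory gene Cd80 lowest at 0.31 and a median of 1.19. Over all spots 5 of these 6 were above 0 (13.6% of all genes) and 0 reached 1, with Cd80 at -0.30 and a median of 0.57. Of 5 plasmacytoid dendritic cell genes, 2 reached 1 outside acinar-rich spots (3.80% of all genes): Siglech, a lectin of that cell type, was at 5.52 and 1.23 CPM (2.16), and the gut-homing receptor Ccr9 at 3.20 and 1.02 CPM (1.65). Both read within the background range in the KPC-shV-labelled library. The lowest was the transcription factor Tcf4, also expressed outside dendritic cells, at 0.04 (-0.01 to 0.09). Over all spots 4 of 5 were above 0 (13.6% of all genes) and Tcf4 was at -0.47, and the summed log2 ratio of the list was -0.30.

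Ligands and growth factors of dendritic cells, of which 4 of 6 listed were used here, split as well. Xcl1, the ligand of Xcr1 made by CD8+ T and NK cells, was at 22.8 and 4.26 CPM outside acinar-rich spots, a log2 ratio of 2.42 (2.30 to 2.55). Csf2, which encodes the growth factor GM-CSF, was at 22.6 and 59.0 CPM, a log2 ratio of -1.39 (-1.46 to -1.32). Flt3l, the ligand of Flt3, stood at 10.8 and 7.06 CPM, a log2 ratio of 0.61. Receptor and ligand of the Xcr1 axis thus both had higher levels in the KPC-shZEB1-labelled library, with Xcl1 at a log2 ratio of 1.79 over all spots. Xcr1 read within the background range in the KPC-shV-labelled library, so its ratio is read with that limit. The growth factor ligands differed in opposite directions outside acinar-rich spots. Over all spots, where the median gene was at -0.48, the log2 ratio was 0.08 (-0.04 to 0.20) for Flt3l and -2.01 for Csf2.

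Co-detection with T cell genes was measured within each library, outside acinar-rich spots, after every spot had been thinned at random to 20000 UMIs so that deeper spots had no advantage. The thinned sets held 1412 spots in the KPC-shZEB1-labelled library and 2673 in the other. Before acinar-rich spots were left out, 70 and 729 spots were too shallow to be thinned. A UMI of Cd3d, Cd3e or Cd3g was present in 904 of 1412 spots (64.0%) and in 546 of 2673 (20.4%). The co-detection ratio is the share of T cell spots with the dendritic cell gene divided by the share of the other spots with it. Over all genes its median was 0.999 in the KPC-shZEB1-labelled library and 1.01 in the other.

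Ccr7 was concentrated in T cell spots in both libraries. In the KPC-shZEB1-labelled library it was found in 239 of 904 T cell spots (26.4%) and in 49 of the 508 others (9.65%), a ratio of 2.74 (2.06 to 3.65). In the KPC-shV-labelled library it was found in 114 of 546 (20.9%) and in 134 of 2127 (6.30%), a ratio of 3.31 (2.63 to 4.18). Without thinning the ratios were 2.37 and 2.16.

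The cDC1 receptors were also more often in T cell spots. Xcr1 or Clec9a, a pair taken after it was seen that Batf3 dominates the cDC1 sum, was found in 19.1% of T cell spots and 10.4% of the others in the KPC-shZEB1-labelled library, a ratio of 1.83 (1.38 to 2.45). In the KPC-shV-labelled library the shares were 13.9% and 5.41%, a ratio of 2.57 (1.96 to 3.39). Clec9a alone gave ratios of 1.66 and 2.81, and Batf3 1.63 and 1.99. Without thinning the pair gave 2.36 and 2.17, and Clec9a 2.21 and 2.36. With another random thinning the pair gave 2.14 and 2.66, and Clec9a 2.23 and 3.11. The order of the libraries thus depended on the thinning for the pair. Xcr1 alone gave 2.72 (1.47 to 5.01) from 58 and 12 spots, and 1.82 (0.97 to 3.40) from 14 and 30 spots. In the KPC-shZEB1-labelled library the Xcr1 ratio was 0.867 when spots were thinned to 5000 UMIs.

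Cd209a differed less clearly: its ratio was 1.29 (0.93 to 1.80) in the KPC-shZEB1-labelled library and 2.32 (1.56 to 3.45) in the other. Itgax gave 1.34 and 1.73, Flt3 1.65 (0.91 to 2.99) and 1.10 (0.65 to 1.88), and Fscn1 1.05 and 1.01. A ratio of at least 2 was reached by Xcr1 and Ccr7 in the KPC-shZEB1-labelled library, against 2.89% of genes, and by Clec9a, Cd209a and Ccr7 in the other, against 4.37%. This set changed with the thinning. In the KPC-shZEB1-labelled library Clec9a gave 2.23 and Flt3 3.02 with another random thinning, and 2.21 and 2.36 without thinning. In the KPC-shV-labelled library Cd209a gave 1.49 without thinning. The share of all genes was not counted at these settings. With the main thinning, the migratory chemokine Ccl22 gave ratios of 2.28 and 3.23. The differences of these ratios between the libraries were not tested.

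T cell spots also held more RNA of B cell genes, macrophage genes and Ptprc. In the KPC-shZEB1-labelled library, T cell spots held 68.5 CPM of B cell genes, 2908 of macrophage genes and 340.3 of Ptprc, against 23.2, 1793 and 154.6 in the others. For the KPC-shV-labelled library the values were 25.4, 3035 and 276.9 against 10.5, 1327 and 109.4. Neutrophil genes stood at 133.9 against 88.8 CPM in the KPC-shZEB1-labelled library and at 201.0 against 318.0 in the other. The co-detection ratio was 1.58 and 1.91 for B cell genes, 1.38 and 1.68 for NK cell genes, 1.39 and 2.34 for monocyte genes, and 1.33 and 0.999 for neutrophil genes. Macrophage genes, found in nearly every spot, gave 1.002 and 1.004. How much of the co-detection of dendritic cell genes goes with general leukocyte density was not tested. Without B cell rich spots the Ccr7 ratios were 2.59 and 3.27 and those of Xcr1 or Clec9a 1.65 and 2.50, while that of Cd209a in the KPC-shZEB1-labelled library was 1.05.

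**Figure D3:**
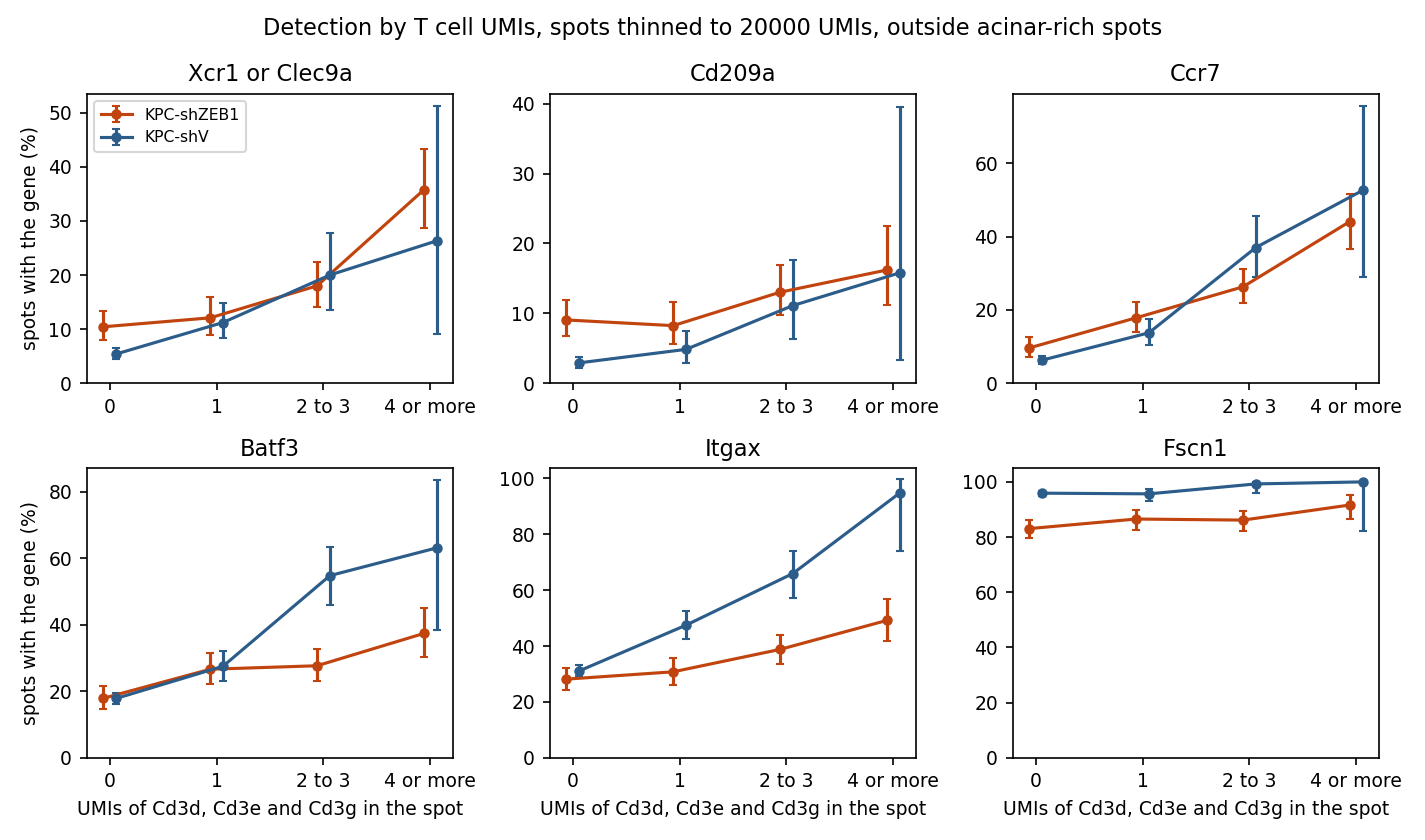
Share of spots (%) with at least 1 UMI of the gene against the number of Cd3d, Cd3e and Cd3g UMIs in the spot, thinned to 20000 UMIs, outside acinar-rich spots, with 95% exact binomial intervals; the last bin of the KPC-shV-labelled library holds 19 spots. The Ccr7 share goes from 9.65% to 44.1% in the KPC-shZEB1-labelled library and from 6.30% to 52.6% in the other, whereas Fscn1 is high in every bin.

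Detection was graded by the number of T cell UMIs. In the KPC-shZEB1-labelled library, Ccr7 was found in 9.65% of spots with 0 T cell UMIs, 17.9% with 1, 26.3% with 2 to 3 and 44.1% with 4 or more. In the KPC-shV-labelled library the shares were 6.30%, 13.8%, 37.0% and 52.6%, the last from 10 of only 19 spots. Xcr1 or Clec9a went from 10.4% to 35.8% in the KPC-shZEB1-labelled library, and from 5.41% to 20% at 2 to 3 T cell UMIs in the other (26.3% in the thin last bin). Itgax reached 49.2% at 4 or more T cell UMIs in the KPC-shZEB1-labelled library and 65.9% already at 2 to 3 in the other. At 1 and at 2 to 3 T cell UMIs the intervals of the libraries overlapped for Ccr7 and for Xcr1 or Clec9a. At 0 T cell UMIs the intervals did not overlap for Xcr1 or Clec9a (7.91 to 13.4% and 4.48 to 6.45%) and Cd209a (6.71 to 11.9% and 2.24 to 3.72%). Nor did they at 2 to 3 for Batf3 (23.1 to 32.6% and 46.0 to 63.4%) and Itgax (33.7 to 44.0% and 57.3 to 73.9%). Itgax intervals were also apart at 1 and at 4 or more, and those of Fscn1 at 0, 1 and 2 to 3. How often the intervals of all genes fail to overlap was not counted, so these cases are not read as particular to the members.

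The ratios were also taken with Cd4 and with the CD8 genes in place of the T cell receptor complex genes. Against Cd4, the CD4 coreceptor gene, which some mouse dendritic cells and macrophages also transcribe, Ccr7 gave 2.11 (1.71 to 2.60) in the KPC-shZEB1-labelled library and 2.41 (1.79 to 3.25) in the other, and Cd209a 2.14 (1.56 to 2.92) and 2.91 (1.82 to 4.66). Against the CD8 genes Cd8a and Cd8b1, Ccr7 gave 1.31 (1.04 to 1.64) and 2.53 (1.78 to 3.59), and Cd209a 0.97 (0.67 to 1.41) and 1.51 (0.72 to 3.20). Xcr1 or Clec9a, the receptors of the cells that cross-present to CD8+ T cells, gave 1.55 (1.19 to 2.02) and 1.50 (0.98 to 2.28) against Cd4. Against the CD8 genes this pair gave 1.14 (0.87 to 1.51) and 1.69 (1.03 to 2.78). In the KPC-shZEB1-labelled library that interval includes 1, and Xcr1 alone gave 0.831 from 13 of 304 spots with a CD8 UMI. The intervals with the CD8 genes are wide in the KPC-shV-labelled library, where 128 spots held a CD8 UMI and both CD8 genes read within the background range over all spots (Cd8a at 1.64 CPM, Cd8b1 at 0.924). The difference between the CD4 and CD8 ratios was not tested.

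**Figure D4:**
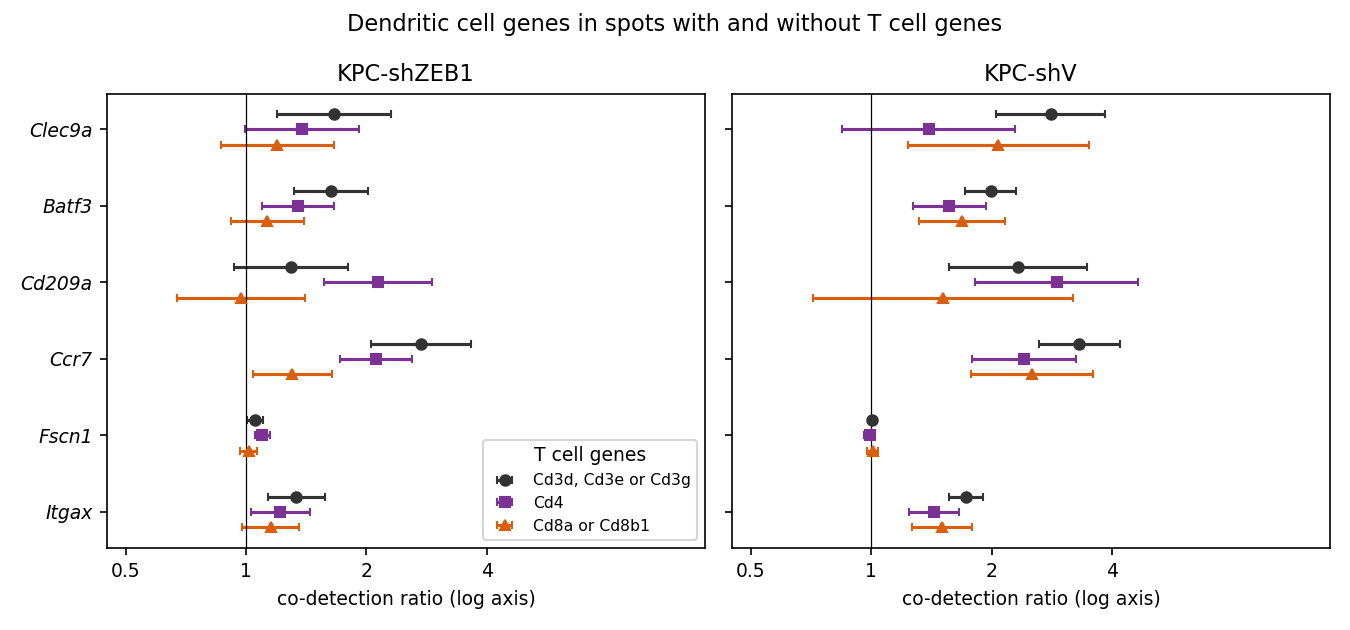
Co-detection ratio (log axis) of 6 members with 3 sets of T cell genes in each library, spots thinned to 20000 UMIs outside acinar-rich ones, with 95% intervals of counting error; a ratio of 1 is marked. Cd209a lies at 2.14 and 2.91 with Cd4 and at 0.97 and 1.51 with Cd8a or Cd8b1, and Fscn1 lies near 1 in every case.

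The members shared spots with each other to unequal degrees. Clec9a was found 1.58 times as often in spots with Batf3 as in spots without it in the KPC-shZEB1-labelled library (1.18 to 2.12), and 2.49 times (1.82 to 3.42) in the other. With Itgax the ratios were 1.67 and 2.50, and with Ccr7 1.72 and 2.70. The pair of cDC1 receptors, Xcr1 and Clec9a, met in 14 spots of the KPC-shZEB1-labelled library, a ratio of 1.83 (1.04 to 3.21), and in 1 spot of the KPC-shV-labelled library, too few to read. Ccr7 and Fscn1 met in 269 of the 288 Ccr7 spots of the KPC-shZEB1-labelled library, where 1212 of 1412 spots held Fscn1, a ratio of 2.34 (1.50 to 3.63), and in 243 of 248 in the other, a ratio of 1.99 (0.84 to 4.71).

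Across spots, the genes most like each member were named by Pearson's r of log2(CPM + 10), taking the lower r of the libraries, over 1466 and 3306 spots that share a library and its depth. Ccr7 was most like Ccl22, with r of 0.59 in the KPC-shZEB1-labelled library and 0.37 in the other, then Cd83, a surface protein of mature dendritic cells, with 0.42 and 0.35. Tmsb4x, Ccr2 and Sfrp1 completed its 5. Itgax was most like the lysosomal protease gene Ctss (0.44 and 0.48) and Ccl17 (0.39 and 0.39), then Ctsz, Mpeg1 and Psap, genes of phagocytes in general. Batf3 was most like the class II gene H2-Eb1 (0.38 and 0.40), followed by Aif1, Serpina3g, Tmsb4x and Cd52.

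Clec9a and Cd209a had weaker neighbors. Clec9a was most like Ccl5, a chemokine of T cells and NK cells, at 0.28 and 0.24, then Serpina3f, Gbp2b, Dnase1l3 and Slamf8. Cd209a was most like Pltp, a phospholipid transfer protein gene, at 0.31 and 0.23, then Saa3, Serpina3n, Prelp and Arsi. Values of this size in sparse counts are a description only, and no r of Flt3 or Xcr1 with any gene named by the same rule reached 0.2.

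Fscn1 was most like genes of the contractile and adhesive cytoskeleton and matrix: Cnn3 at 0.44 and 0.41, Cald1 at 0.43 and 0.40, then Anxa6, Marcksl1 and Thbs1. Its r with Ccr7 was 0.32 in the KPC-shZEB1-labelled library and 0.06 in the other. With the epithelial adhesion gene Epcam it was -0.35 in the KPC-shZEB1-labelled library and 0.21 in the KPC-shV-labelled library, opposite signs, and with the collagen gene Col1a1 it was 0.39 and 0.11. Ccr7 and Cd209a were negatively related to the keratin genes Krt8 and Krt19 in both libraries, Ccr7 at -0.38 and -0.20 with Krt8, and Cd209a at -0.31 and -0.19. This was not particular to them: Batf3 was at -0.25 and -0.14 with Krt8, and Xcr1, Clec9a and Flt3 were more weakly negative. Fscn1 and Itgax had opposite signs with Krt8 in the libraries.

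**Figure D5:**
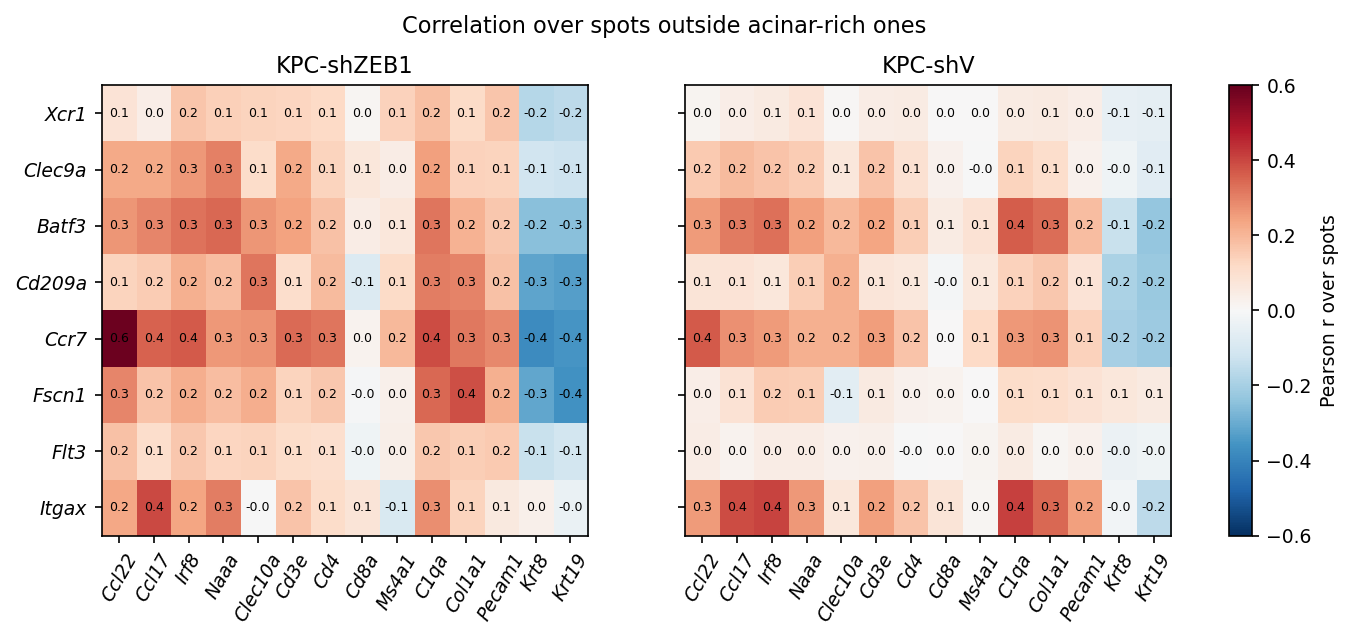
Pearson's r over spots outside acinar-rich ones between each member and 14 dendritic cell, lymphocyte, macrophage, stromal and epithelial genes, in 1466 spots of the KPC-shZEB1-labelled library and 3306 of the KPC-shV-labelled library. Ccr7 with Ccl22 is at 0.59 and 0.37 and Itgax with C1qa at 0.28 and 0.41, while Flt3 and Xcr1 lie between -0.17 and 0.18.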

How the data were processed

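The deposited values are raw UMI counts per gene and spot. The authors fixed frozen tumor tissue in methanol, made probe-based Visium CytAssist libraries and, by the submitters' processing notes, counted them with Space Ranger 2.0.1 against mm10. A probe panel measures each gene only through its probes, so levels of different genes were not ranked. UMIs were summed over spots and divided by the library total (CPM), with exact Poisson intervals, exact conditional binomial intervals of the log2 ratio and Katz intervals of co-detection ratios, at the 95% level. The intervals cover counting error only. With 1 library per group no test was run. Python 3.11.15, numpy 2.4.6 and scipy 1.17.1 were used. On simulated data, 200 of 200 changed genes were given the right direction, and 95.5% of the intervals of 19281 genes held the true value. The changed genes had set log2 changes of at least 1 either way. They were drawn above a level that Xcr1, Clec9a, Cd209a, Flt3 and Ccr7 did not reach in the KPC-shV-labelled library. All simulated spots of a library had the same gene shares. Recovery of direction for these members, or in mixed tissue, was therefore not measured. Acinar-rich spots were those with over 20% of UMIs from the acinar list, of which 19 of 24 genes were measured. Genes with at least 100 UMIs over both libraries (19011, all 8 members among them) formed the background, and a log2 ratio of 1 or a co-detection ratio of 2 was counted.

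The text names all 8 members, the highest and lowest genes outside acinar-rich spots of each further dendritic cell list, and the 5 genes most like each member except Flt3 and Xcr1, whose values were all weak. The members and lists were chosen with earlier results of these data known. The libraries were assigned by their titles. Spots were not clustered and no doublet caller was run, since a spot holds several cells. Gene positions follow GRCm38 and promoter windows RefSeq GRCm38.p6. Alternatives changed the spots used, the total, the weights, the thinning and the T cell genes.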

Additional observations from a re-analysis of the deposited data

How the results depend on the processing

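No paired analysis was possible because each group has 1 library, and no replicate could be left out. All values here are log2 ratios or co-detection ratios without a test, and the cause of a shift was not tested. Over 9 settings (8 for Xcr1) the log2 ratio ran from 0.71 to 1.74 for Xcr1, 0.40 to 1.34 for Clec9a, 0.36 to 1.31 for Cd209a and 0.74 to 1.63 for Ccr7, all above 0. The setting without the 5% of spots with the highest level gave no value for Xcr1, since in the KPC-shV-labelled library all its UMIs lie in those spots. Filtering spots on genes and UMIs moved no level. Settings per Ptprc UMI and without both acinar-rich and B cell rich spots, and the pair Xcr1 or Clec9a, were chosen after seeing the data. Flt3 and Batf3 turned above 0 without acinar-rich spots (0.14 and 0.17) and with median-of-ratios scaling (0.11 and 0.093), and Batf3 without acinar-rich and B cell rich spots (0.093). The co-detection ratio of Xcr1 in the KPC-shZEB1-labelled library fell below 1 when thinned to 5000 UMIs (0.867) and with the CD8 genes (0.831). The summed log2 ratios of the cDC1 genes, the cDC2 gene, the migratory genes and the shared genes, in that order, were 0.55, 1.31, -0.69 and -0.092 without acinar-rich spots, 0.33, 1.10, -0.93 and -0.38 with acinar genes out of the total, 0.47, 1.24, -0.79 and -0.23 with median-of-ratios scaling, -0.37, 0.40, -1.63 and -1.08 per Ptprc UMI, and 0.47, 1.06, -0.74 and -0.099 without acinar-rich and B cell rich spots. Without B cell rich spots the first 3 were -0.14, 0.51 and -1.37, without the top 5% of spots the last 3 were 1.09, -1.45 and -0.83, and as a mean of spot CPM the cDC2 and migratory values were 0.36 and -1.07. As a mean of gene log2 ratios the cDC1, migratory and shared values were 0.50, -0.16 and -0.55, since each gene then has the same weight. In the KPC-shZEB1-labelled library the co-detection ratio of the cDC1 genes moved from 1.55 to 1.90 with another random thinning, 2.89 with acinar-rich spots kept and 1.09 with the CD8 genes, that of Cd209a to 2.08 at 5000 UMIs, 1.98 with acinar-rich spots and 2.14 with Cd4, and that of Ccr7 to 1.85 at 5000 UMIs, 4.31 with acinar-rich spots and 1.31 with the CD8 genes. In the KPC-shV-labelled library the cDC1 ratio moved from 1.94 to 1.54 without thinning, 2.23 at 5000 UMIs, 2.65 at 2 or more T cell UMIs, 1.66 with the CD8 genes and 1.47 with Cd4, that of Cd209a to 1.49 without thinning, 3.63 at 2 or more T cell UMIs and 1.51 with the CD8 genes, and that of Ccr7 to 2.16, 5.22, 2.53 and, with Cd4, 2.41. Xcr1 and Flt3, at or near the level of genes not expected in this tissue, are limited by depth.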
